A study of Homo sapiens with 6 samples.

Results

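The genes described here are 39 genes of the hypoxia response and of glycolysis named by symbol, among 27738 genes matched to the deposited table of this study. Each gene was represented by its RefSeq transcript accession with the highest mean read count. They comprise 12 glycolytic enzymes, 25 further targets of the hypoxia-inducible factors (HIFs) and the 2 HIF alpha subunits HIF1A and EPAS1. RNA was sequenced from U87, an established human glioblastoma cell line, in 6 libraries, of which 3 carry the label EGFR+vIII and 3 the label EGFR+vIII TLR2 KO. EGFR is the epidermal growth factor receptor and vIII its constitutively active deletion mutant. Both groups carry them, and the groups differ by their labels in the knockout of TLR2, a cell surface receptor of innate immunity. The labels do not say how the knockout was made, whether it is 1 clone, whether the libraries of a group are separate cultures, or at what oxygen level the cells were grown. P-values therefore reflect only how far libraries of 1 group spread, and that spread may be technical.

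HIFs are transcription factors made of an oxygen-regulated alpha subunit and a stable partner, ARNT. With oxygen present, prolyl hydroxylases of the EGLN family mark the alpha subunit for destruction by VHL; in hypoxia it accumulates, binds DNA at the core letters ACGTG or GCGTG, and raises genes for glucose uptake, glycolysis, pH control, mitophagy and secreted signals. Glioblastoma is known for hypoxic zones, high glycolysis and induction of CA9 and VEGFA, and growth factor signalling can feed the same programme.

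The deposited file is the authors' own comparison, with 1 line per accession and no value per library, so each member is given as a base mean (the mean normalized read count over all 6 libraries) and a log2 fold change of knockout over EGFR+vIII with its standard error (SE). The mean of each group was computed from these 2 deposited values and is called the implied mean. Gene positions are those of GRCh38.p14, the build named hg38 in the labels. The base means sum to 11240272 normalized reads per library. A gene was called higher or lower at an adjusted p under 0.05 in the authors' deposited table (DESeq2, Benjamini-Hochberg). The order of the groups was read from the table's name and could not be checked on the targeted gene, since all 8 TLR2 accessions are listed at 0 in the authors' deposited table; with the groups swapped, all directions below would turn round. EGFR, which both groups carry, has 9 accessions and a highest base mean of 1.32 in the authors' deposited table, with no adjusted p. Of the glioma and mesenchymal markers, VIM had a base mean of 126476 and a log2 fold change of -0.29 (adjusted p = 0.00235), S100A6 73520 and 0.20 (adjusted p = 0.0418), and LGALS1 8347 and 0.05 (adjusted p = 0.831), per the authors' deposited table. NES was higher by 1.01 (adjusted p = 1.15e-14) and CAV1 by 0.66 (adjusted p = 0.0158), and CD44 was at a base mean of 26.7 and not called, per the authors' deposited table. VIM, S100A6, NES and CAV1 thus changed beside the members, and their part in the results was not tested. Of 5 leucocyte genes, PTPRC, CD14 and CD79A were listed at 0, while CD68 had a base mean of 42.6 (-0.68, adjusted p = 0.113) and CD3E of 2.47 in the authors' deposited table. Of 5 astrocyte genes, GFAP, AQP4, ALDH1L1 and S100B were listed at 0 and SLC1A3 had a base mean of 1.67 in the authors' deposited table. All of those at 0 except S100B have several accessions, for which values were sparse throughout. Of 5 endothelial genes, KDR had a base mean of 556, PECAM1 of 159 and VWF of 13.5 in the authors' deposited table, none of them called, and CDH5 and CLDN5 were at 0.539 and 0.163.

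Among the members that could be tested, most of the called changes were falls in the TLR2 knockout. In the authors' deposited table, an adjusted p is given for 27 of the 39 members: 12 were lower, 1 was higher (DDIT4) and 14 were not called. Another 9 members had too few reads for an adjusted p, and 3 (VEGFA, P4HA2 and INSIG2) were listed at 0 in every accession. Over all 9372 tested genes of the authors' deposited table, 12.7% were called lower, 12.4% higher and 25.1% in either direction. The median log2 fold change of the tested members was -0.35, beside 0.02 over all tested genes. Those with a tested value are not all members, because reads decided which could be tested. In order of fall, the 12 were STC1, MXI1, ANGPTL4, ADM, ENO2, CA9, STC2, SLC2A1, ALDOC, EPAS1, BNIP3 and EGLN1. Against a null of a change over 1.5-fold only STC1 and ADM kept the call, and with Wald scores scaled by their central spread 6 members did (STC1, ADM, ENO2, CA9, STC2 and EPAS1).

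**Figure D1:**
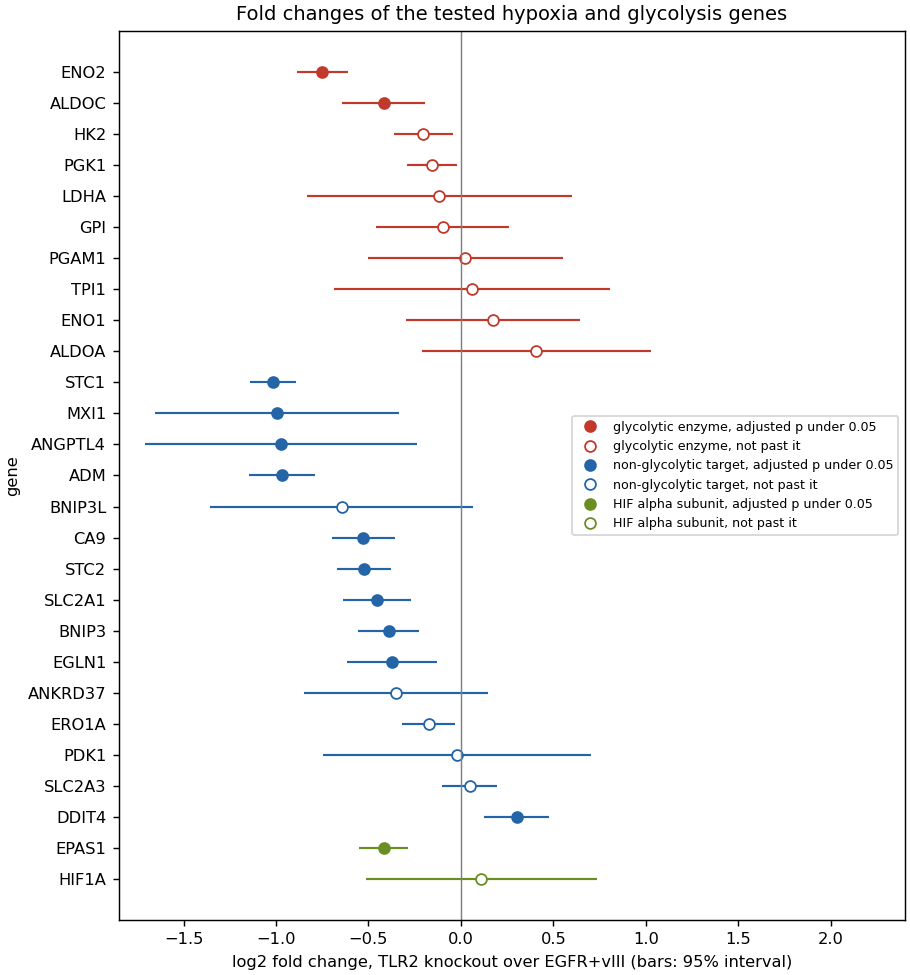
Log2 fold change of the 27 tested members, knockout over EGFR+vIII (x axis), by gene (y axis), with 95% intervals as bars; filled points passed an adjusted p of 0.05 in the authors' deposited table. The 12 filled points left of 0 run from STC1 at -1.02 to EGLN1 at -0.37, and DDIT4 at 0.30 is the 1 filled point to the right.

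Among the glycolytic enzymes, ENO2 and ALDOC fell and none was called higher. Of the 12 enzymes 10 were tested, with a median log2 fold change of -0.11 in the authors' deposited table. The 2 called lower of 10 are near the 12.7% lower of all tested genes. ENO2 (chr12:6914580-6923697), the neuronal-type enolase, had an implied mean of 8318 normalized reads in EGFR+vIII and 4947 in the knockout, 40.5% lower. The deposited log2 fold change of ENO2 in the authors' deposited table was -0.75 (SE 0.07, adjusted p = 3.37e-24). ALDOC (chr17:28573120-28576895), the brain-type aldolase, went from an implied 1042 to 780 normalized reads, and the authors' deposited table gives it -0.42 (SE 0.11, adjusted p = 0.00158); the call was lost with scaled Wald scores (adjusted p = 0.25). ENO2 was thus the enzyme with the larger fall. The 20 tested genes flanking it on the chromosome, 10 on each side, had a median log2 fold change of 0.35, in the other direction.

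The remaining tested enzymes did not pass. HK2, the inducible hexokinase that starts glycolysis, had a log2 fold change of -0.20 in the authors' deposited table (95% interval -0.36 to -0.04, adjusted p = 0.055). PGK1, the kinase that makes ATP from 1,3-bisphosphoglycerate, had a base mean of 38390 and -0.16 in the authors' deposited table (interval -0.29 to -0.02, adjusted p = 0.0881). Both were called lower when genes below a base mean of 100 were left out (adjusted p = 0.0301 for HK2 and 0.0497 for PGK1) and when fold changes were centred on the median of tested accessions (0.0313 and 0.0481). PGK1 turned to 0.13 relative to its 20 neighbours, whose median was -0.28, and was not called there (adjusted p = 0.199). The other 6 tested enzymes had wider intervals, all spanning 0. Deposited fold changes appear pulled towards 0 where reads are few, so a value near 0 there does not show an unchanged gene. GPI, the isomerase of glucose 6-phosphate, had -0.10 (interval -0.46 to 0.26) and ENO1, the ubiquitous enolase, 0.17 (interval -0.30 to 0.65) per the authors' deposited table. PGAM1, the phosphoglycerate mutase, had 0.02 (interval -0.50 to 0.55) per the authors' deposited table at a base mean of 71.5. TPI1, triose phosphate isomerase, had 0.06 (interval -0.68 to 0.81) and LDHA, which turns pyruvate into lactate, -0.12 (interval -0.83 to 0.60) per the authors' deposited table, at base means of 13.3 and 9.02. ALDOA, the muscle-type aldolase, had 0.41 (interval -0.21 to 1.03) per the authors' deposited table at a base mean of 3.26. HK1 and PFKP, at 0.788 and 2.10 normalized reads per the authors' deposited table, have no adjusted p, and no change of these was detectable.

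Of the genes for glucose entry and the control of flux, SLC2A1 fell and SLC2A3 was not called. SLC2A1 (chr1:42925353-42958868), the glucose transporter GLUT1, went from an implied 6575 to 4806 normalized reads, 26.9% lower. Its log2 fold change in the authors' deposited table was -0.45 (SE 0.09, adjusted p = 1.71e-05), and it lost the call with scaled Wald scores (adjusted p = 0.0663). SLC2A3, the high-affinity transporter GLUT3, stood at an implied 2630 and 2718 normalized reads, with 0.05 (interval -0.10 to 0.20) per the authors' deposited table. SLC2A3 has a near-identical paralog, SLC2A14, with which it can share reads. Its neighbours had a median of 0.32, and relative to them SLC2A3 turned to -0.27 and was called lower (adjusted p = 0.0022). That call leaves out the spread of the neighbours' own fold changes. PDK1, which phosphorylates pyruvate dehydrogenase and so holds pyruvate out of mitochondria, had a base mean of 5.92 and -0.02 (interval -0.75 to 0.70) per the authors' deposited table, read from a non-coding accession of the gene. PFKFB3 and PFKFB4, which set the level of the phosphofructokinase activator fructose 2,6-bisphosphate, had base means of 3.01 and 1.63 and no adjusted p, per the authors' deposited table.

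All 4 secreted factors that were tested were lower, beside 12.7% of all tested genes and 23.1% of those with a base mean of at least 100. STC1 had the largest deposited fall of the tested members. STC1, stanniocalcin 1, a glycoprotein hormone of calcium and phosphate balance, had the highest base mean of the members. It was also highest per length, with 15813 normalized reads per kilobase. Base means are per transcript, so members with several transcripts, such as LDHA, ALDOA and ENO1, cannot be ranked against STC1 as whole genes. STC1 went from an implied 82180 to 40623 normalized reads, 50.6% lower, and the authors' deposited table gives -1.02 (SE 0.06, adjusted p = 8.4e-55). Its 20 neighbours had a median of -0.38, and relative to them STC1 was at -0.63 (adjusted p = 2.01e-21), a value over 1.5 times smaller that was still called. It then ranked behind ENO2 (-1.10), ANGPTL4 (-1.04), MXI1 (-0.96) and ADM (-0.86). ADM (chr11:10305073-10307397), the vasodilator peptide adrenomedullin, went from an implied 2566 to 1312 normalized reads, and the authors' deposited table gives -0.97 (SE 0.09, adjusted p = 2.77e-24). STC2 (chr5:173314723-173328414), the relative of STC1, went from an implied 3603 to 2507 normalized reads, with -0.52 (SE 0.08, adjusted p = 8.23e-11) per the authors' deposited table. ANGPTL4, an inhibitor of lipoprotein lipase, had a base mean of 71.9 in the 1 of its 3 transcripts with reads. It had -0.97 (SE 0.37, adjusted p = 0.042) per the authors' deposited table. The ANGPTL4 call was lost at an adjusted p of 0.01, against the 1.5-fold null and with scaled scores (adjusted p = 0.615). VEGFA, the angiogenic growth factor, has 20 accessions in the authors' deposited table, all listed at 0, so nothing can be said of it.

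**Figure D2:**
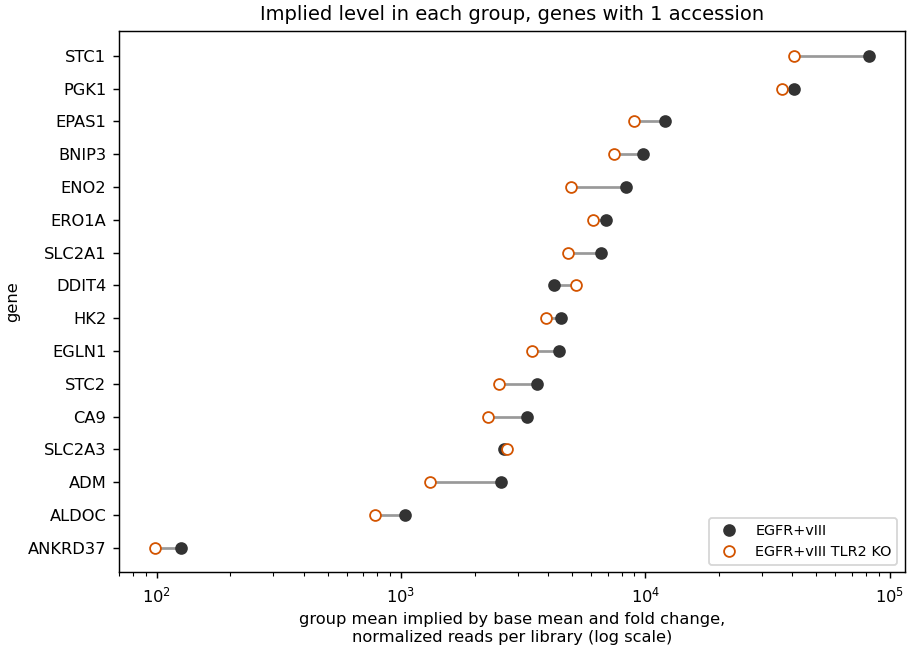
Implied mean normalized reads per library (x axis, log scale) of the 16 members with 1 accession (y axis), in EGFR+vIII (filled) and in the TLR2 knockout (open), computed from the authors' deposited table and joined by lines with no error shown. STC1 goes from 82180 to 40623 and ADM from 2566 to 1312, while DDIT4 rises from 4219 to 5197.

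CA9, the mitophagy receptor BNIP3 and the oxygen sensor EGLN1 were also lower. CA9 (chr9:35673928-35681159), the membrane carbonic anhydrase that acidifies the space around hypoxic cells, went from an implied 3286 to 2280 normalized reads, 30.6% lower, with -0.53 (SE 0.09, adjusted p = 1.52e-08) per the authors' deposited table. CA12, its relative, had a base mean of 0.473 and no adjusted p, per the authors' deposited table. BNIP3 (chr10:131967684-131981923), which brings mitochondria to the autophagosome, went from an implied 9781 to 7461 normalized reads, with -0.39 (SE 0.08, adjusted p = 3.85e-05) per the authors' deposited table. BNIP3L, its relative of the same role, had a base mean of 22.4 and -0.64 (interval -1.35 to 0.07, adjusted p = 0.214) per the authors' deposited table. The neighbours of BNIP3L had a median of -0.40 and those of BNIP3 0.06. EGLN1 (chr1:231363756-231422287), the main HIF prolyl hydroxylase and itself a HIF target, went from an implied 4437 to 3425 normalized reads, with -0.37 (SE 0.12, adjusted p = 0.0132) per the authors' deposited table. With scaled scores neither BNIP3 (adjusted p = 0.0845) nor EGLN1 (0.456) was called, and EGLN1 also missed an adjusted p of 0.01. EGLN3, another prolyl hydroxylase, and KDM3A, a histone H3K9 demethylase, had base means of 0.158 and 0.480, per the authors' deposited table, and no adjusted p.

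DDIT4 was the 1 member called higher. DDIT4 (chr10:72273924-72276036), also called REDD1, an inhibitor of mTORC1 induced by hypoxia and by other stresses, went from an implied 4219 to 5197 normalized reads, 23.2% higher, with 0.30 (SE 0.09, adjusted p = 0.00425) per the authors' deposited table. The call was lost relative to neighbouring genes (0.21, adjusted p = 0.0615) and with scaled scores (adjusted p = 0.33). ERO1A, the oxidase that drives disulphide formation in the endoplasmic reticulum, had -0.17 (interval -0.32 to -0.03, adjusted p = 0.0679) per the authors' deposited table. ERO1A was called lower with genes below a base mean of 100 left out (adjusted p = 0.0377), after centring (0.0372) and relative to its neighbours (-0.31, adjusted p = 0.000231). ANKRD37, an ankyrin repeat protein, had a base mean of 112 and -0.35 (interval -0.85 to 0.15) per the authors' deposited table. NDRG1, a stress-responsive gene, and P4HA1, a catalytic subunit of collagen prolyl hydroxylase, had base means of 1.59 and 2.11 and no adjusted p, per the authors' deposited table. P4HA2, the other such subunit, has 9 accessions and INSIG2, which restrains cholesterol synthesis, has 6, all at 0 in the authors' deposited table.

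MXI1, a repressor that competes with MYC for its partner MAX, gave differing values by transcript. Accession NM_130439, which stood for the gene, had a base mean of 41.5 and -0.99 (SE 0.34, adjusted p = 0.0163) per the authors' deposited table. Accession NM_005962 had a base mean of 6.0 and 0.52 (SE 0.35, adjusted p = 0.322) per the authors' deposited table, and a further accession was listed at 0. The difference between the 2 was -1.52 (95% interval -2.46 to -0.57, independence assumed). This pair was singled out after its values were seen and was given no p. The interval may be too narrow, because deposited SEs stay small where reads are few. The MXI1 call was lost at an adjusted p of 0.01, against the 1.5-fold null and with scaled scores (adjusted p = 0.482).

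Of the HIF alpha subunits, EPAS1 fell and HIF1A could barely be read. EPAS1 (chr2:46297407-46386697), HIF-2 alpha, went from an implied 12040 to 9016 normalized reads, 25.1% lower, with -0.42 (SE 0.07, adjusted p = 1.14e-08) per the authors' deposited table. HIF1A, HIF-1 alpha, has 3 accessions and a highest base mean of 3.44, close to the lowest tested (3.11), with 0.11 (interval -0.52 to 0.74) per the authors' deposited table. These are transcript levels, while HIF activity is set mainly by protein stability, which was not measured.

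Related members were set against each other for 11 pairs, of which 6 had both members tested, with p-values from a two-sided normal test adjusted over the 6 and independence of the deposited values assumed. ENO1 and ENO2 differed by 0.92 (SE 0.25, adjusted p = 0.000452) and ALDOA and ALDOC by 0.83 (SE 0.34, adjusted p = 0.0206), with the lower value in ENO2 and in ALDOC. Each value is that of 1 accession, not of the whole gene. SLC2A1 differed from SLC2A3 by -0.50 (SE 0.12, adjusted p = 0.000117) and STC1 from STC2 by -0.49 (SE 0.10, adjusted p = 3.44e-06). No difference was called for BNIP3 against BNIP3L (0.25, interval -0.48 to 0.98, adjusted p = 0.495) or HIF1A against EPAS1 (0.53, interval -0.11 to 1.17, adjusted p = 0.127). With SEs scaled by the central spread of Wald scores, 1 of the 4 differences was called, that of STC1 and STC2, and those of the enzymes and of the glucose transporters were not. ALDOA and HIF1A rest on base means of 3.26 and 3.44, per the authors' deposited table. Deposited SEs stay small where reads are few (0.17 for HK1 at a base mean of 0.788). Deposited fold changes also appear pulled towards 0 there (0.04 for EGLN3 at a base mean of 0.158). The normal test may therefore not hold for pairs with such a member, and no conclusion is drawn from their p-values.

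Glycolytic and non-glycolytic members differed in how many were called, but also in how many reads they had. Of the non-glycolytic targets 15 of 25 were tested, 9 lower and 1 higher, with a median log2 fold change of -0.45, beside 2 lower of 10 tested enzymes and a median of -0.11 in the authors' deposited table. Over all tested genes 12.7% were lower and 12.4% higher, and the count of enzymes was near these shares. Among members with a base mean of at least 100, 10 of 18 were lower and 1 higher, where 23.1% of the 4227 such genes of the authors' deposited table were lower, 20.0% higher and 43.1% called. There the 6 enzymes had 2 lower and a median of -0.18, and the 11 other targets 7 lower and a median of -0.39. Restricted to genes with 1 accession, the 4 enzymes (ENO2, ALDOC, HK2 and PGK1) were all negative, with a median of -0.31, and the 11 other targets had a median of -0.39. The gap between the classes was thus smaller where reads were many. It was given no test, and its relation to abundance was not tested. Medians over all tested members mix values of many and of few reads, and the latter appear pulled towards 0.

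**Figure D3:**
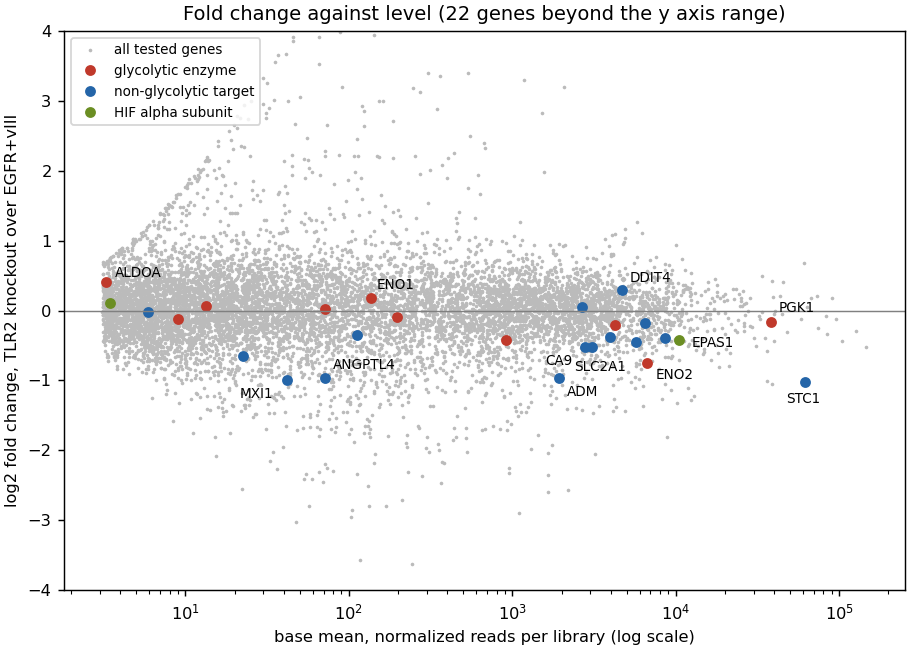
Log2 fold change of knockout over EGFR+vIII (y axis) against base mean (x axis, log scale) for all 9372 tested genes of the authors' deposited table (grey) and the members (coloured by class). STC1, ADM and ENO2 lie low at high base means, and ALDOA and HIF1A sit at the left edge with base means of 3.26 and 3.44.

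Members with 1 accession held most of the reads. All 16 members with 1 accession had a base mean of at least 100, and 10 were lower and 1 higher in the authors' deposited table. Of all tested genes with that base mean, 23.1% were lower and 20.0% higher. Of the 23 with several accessions 11 were tested and 2 (MXI1 and ANGPTL4) were lower, near the 12.7% of all tested genes. Called shares by number of accessions were not computed over all genes. Among these 23, the members that reached a base mean of 100 were ENO1 and GPI. Of all protein-coding genes listed in the authors' deposited table, that base mean was reached by 40.8% of 7927 genes with 1 accession, 10.1% of 6613 with 2 to 3, 3.89% of 3036 with 4 to 6 and 1.86% of 1560 with 7 or more. LDHA, PFKP, HK1 and VEGFA, with 6, 11, 10 and 20 accessions, belong to the sparse side. How reads shared by several accessions were assigned is not given in the sources used here. A low value of these genes therefore describes 1 accession and not the whole gene.

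**Figure D4:**
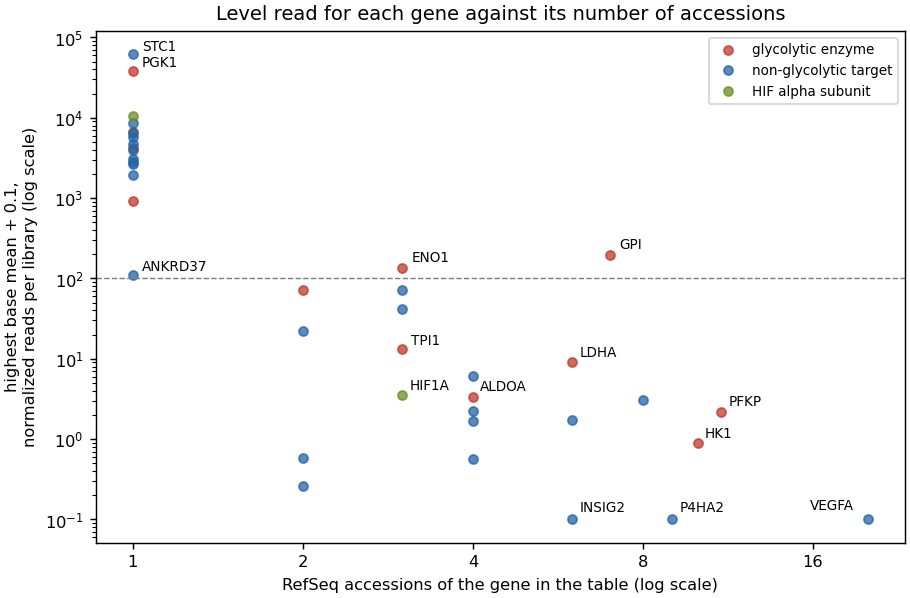
Highest base mean of each member plus 0.1 (y axis, log scale) against the number of accessions of the gene in the authors' deposited table (x axis, log scale); the dashed line marks a base mean of 100. The 16 members with 1 accession lie between 112 (ANKRD37) and 61402 (STC1), and VEGFA, P4HA2 and INSIG2, listed at 0, are drawn at 0.1.

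The letters ACGTG or GCGTG that HIFs bind were searched on both strands (as CACGT or CACGC on the reverse, with CACGTG counted on both) in RefSeq promoters of GRCh38.p14, from 250 bases before to 50 after each gene's start. An entry was found for 34 of the 39 members, and 31 (91.2%) held a match in at least 1 window, beside 14318 of 27305 genes (52.4%) and 48.4% of all 35116 windows. Searched by itself, ACGTG was found in 21 members, beside 24.9% of genes, and GCGTG in 22, beside 40.6%. All 11 members called lower that had an entry held a match, and so did 12 of the 13 tested members not called lower (92.3%). The share was high in members that fell and in those that did not. These shares are descriptions, and a gene with several windows has more chances of a match. Stretches before the start are printed 5′ to 3′ in the gene's direction, with each match in capitals. They set some of the members called lower beside 1 called higher and 1 not called. The set is a choice: stretches of EPAS1 and ANGPTL4, also called lower, and of several other members not called are not printed. The members called lower that are printed are ADM (chr11:10304944-10305003, plus strand), CA9 (chr9:35673882-35673927, plus), ENO2 (chr12:6914434-6914493, plus), BNIP3 (chr10:131981996-131982055, minus), EGLN1 (chr1:231422288-231422328, minus), ALDOC (chr17:28576896-28576951, minus) and STC2 (chr5:173328605-173328664, minus). DDIT4 (chr10:72273843-72273902, plus) was called higher, PGK1 (chrX:78104037-78104096, plus) was not called, and the MXI1 stretch (chr10:110225837-110225896, plus) precedes accession NM_005962, which was not called.
ADM: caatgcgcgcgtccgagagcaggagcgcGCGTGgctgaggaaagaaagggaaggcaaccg
CA9: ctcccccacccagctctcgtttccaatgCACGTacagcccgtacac
ENO2: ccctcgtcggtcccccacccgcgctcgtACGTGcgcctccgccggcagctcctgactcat
BNIP3: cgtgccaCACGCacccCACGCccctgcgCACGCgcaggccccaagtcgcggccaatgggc
EGLN1: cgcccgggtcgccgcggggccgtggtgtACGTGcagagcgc
ALDOC: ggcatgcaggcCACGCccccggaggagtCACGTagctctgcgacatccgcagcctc
STC2: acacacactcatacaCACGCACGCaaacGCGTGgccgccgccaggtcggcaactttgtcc
DDIT4: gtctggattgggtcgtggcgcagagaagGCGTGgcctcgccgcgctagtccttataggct
PGK1: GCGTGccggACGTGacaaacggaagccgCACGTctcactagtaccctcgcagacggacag
MXI1: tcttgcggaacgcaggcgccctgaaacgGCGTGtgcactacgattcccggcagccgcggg
BNIP3 holds 3 copies of CACGC within this stretch and PGK1 3 matches, while ADM, CA9, ENO2, EGLN1 and DDIT4 hold 1 each. Over the whole windows BNIP3 held 6 matches, ALDOC 5, DDIT4 and PGK1 4 each and STC2 3, and ADM, CA9, ENO2 and EGLN1 1 each. The MXI1 window of NM_130439, the accession that fell, held 0 matches and that of NM_005962 held 2. In SLC2A1 the 1 match lay after the start.

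Other genes of these pathways were counted from 5 lists of 99 genes, of which 48 were tested, 24 had too few reads for an adjusted p, 26 were at 0 and 1 was not analysed here. Among the tested, 17 were lower and 4 higher in the authors' deposited table, beside 12.7% and 12.4% of all tested genes. Further HIF targets had 11 of 22 tested genes lower and 1 higher, with a median log2 fold change of -0.57 in the authors' deposited table. Most of these tested targets had a base mean of at least 100, where 23.1% of all tested genes were lower and 20.0% higher. AK4, an adenylate kinase of mitochondria, was at -1.10 (SE 0.32, adjusted p = 0.00434) and BHLHE41, a transcriptional repressor of the clock, at -1.07 (SE 0.09, adjusted p = 1.36e-31) per the authors' deposited table. LOXL2 and LOX, which crosslink collagen, fell by 1.06 (SE 0.07) and 0.92 (SE 0.12) in log2 units, per the authors' deposited table. CCNG2, an unconventional cyclin, fell by 0.82 (SE 0.11) and ZNF395, a zinc finger protein, fell by 0.72 (SE 0.09) in log2 units, per the authors' deposited table. The neighbours of ZNF395 and LOXL2 had medians of -0.38 and -0.32, on the same side as the falls of these genes.

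The HIF machinery had 1 of 11 tested genes lower (ARNT2) and 1 higher (RACK1, named after its value was seen), near the 12.7% and 12.4% of all tested genes. ARNT2, a partner of HIF alpha subunits in neural tissue, fell from an implied 926 to 374 normalized reads, with -1.31 (SE 0.12, adjusted p = 2.57e-27) per the authors' deposited table. ARNT, the general partner, had a base mean of 0.476 over 8 accessions and no adjusted p, per the authors' deposited table. VHL, the ubiquitin ligase subunit that recognises hydroxylated HIF, had -0.37 (interval -0.84 to 0.10, adjusted p = 0.309) per the authors' deposited table. A second tested VHL transcript, at a base mean of 4.38, had 0.37 (adjusted p = 0.539) there. The remaining glycolytic and lactate genes had 1 of 7 tested lower (HKDC1, a hexokinase relative, named after its value was seen, at -0.32) and 0 higher, per the authors' deposited table, also near those shares. GAPDH had a base mean of 6.19 and 0.57 (interval -0.14 to 1.28, adjusted p = 0.292) per the authors' deposited table. A second tested GAPDH transcript, at a base mean of 3.74, had -0.07 (adjusted p = 0.922) there. PKM, LDHB and the lactate exporter SLC16A3 had base means of 1.49, 2.76 and 2.76, with no adjusted p, per the authors' deposited table, so pyruvate kinase and lactate handling could not be read.

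**Figure D5:**
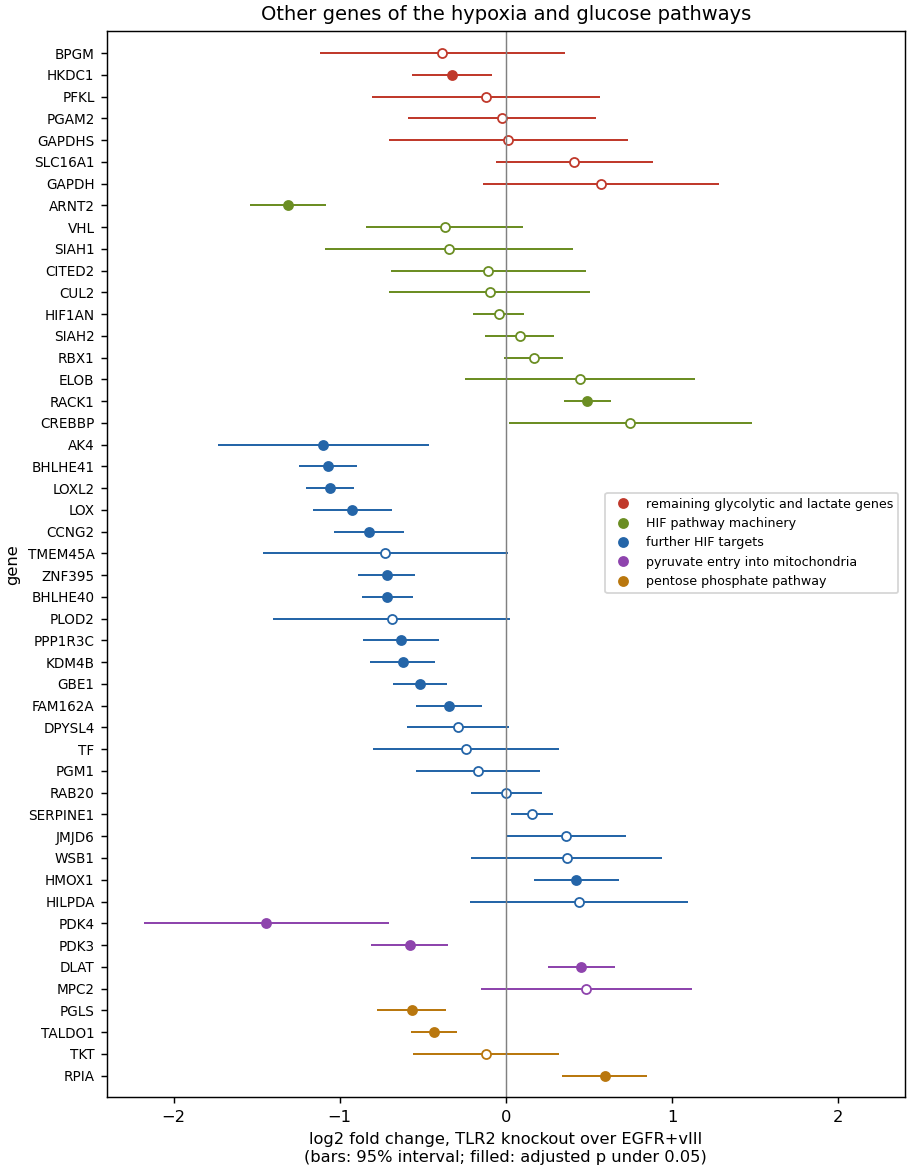
Log2 fold change of the 48 tested genes of the 5 further lists, knockout over EGFR+vIII (x axis), by gene (y axis), with 95% intervals as bars and colours by list; filled points passed an adjusted p of 0.05 in the authors' deposited table. Further HIF targets show 11 filled points left of 0 and HMOX1 (0.42) to the right, and ARNT2 stands at -1.31.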

How the data were processed

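RNA of 6 U87 libraries, 3 per group, was sequenced by the submitters, who named STAR, DESeq2 and hg38 per the submitters' processing notes, without versions; the counter, annotation and strandedness were not given in the sources used here. Groups follow the cell type of the labels. The authors deposited 1 DESeq2 table for 67933 RefSeq accessions. Per the file headers it holds a base mean (a signal, the mean of normalized reads), and, as the authors deposited them, a log2 fold change with its SE on the log2 scale, a Wald score, and a p-value with its adjusted p-value. The largest deposited SE was 0.38 even where reads are few. Fold changes appear pulled towards 0 there as well, so a value near 0 with few reads does not show an unchanged gene. No depth or value per library is given, so the count test planned for that case could not be run and the deposited adjusted p (10303 accessions) was used. No count model was fitted here.

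Accessions were matched to symbols with the RefSeq gene table of GRCh38.p14 (98.8% matched), and each gene took its accession with the highest base mean. Group means, 95% intervals, medians, differences between pairs and promoter matches were computed with Python 3.11.15, pandas 2.3.3, numpy 2.4.6 and scipy 1.17.1. Only the calls from Wald scores, scaled Wald scores and the 1.5-fold null and the search for promoter matches were tested on simulated data. Differences from neighbouring genes were chosen as an alternative after seeing the data. They used the 10 tested genes before and the 10 after on the chromosome (20 neighbours), or fewer near its ends. The neighbours' median was subtracted and the gene's own SE kept. Their spread therefore does not enter these p-values, which may be too small. Other alternatives changed the threshold, null, score scale, centre, accession and base mean minimum. By rule, the genes named are all 39 members, 6 pathway genes given whatever their values (GAPDH, PKM, LDHB, VHL, ARNT and SLC16A3), the 8 called genes of the further lists with the largest absolute log2 fold change, and TLR2 and EGFR. The cell type markers and SLC2A14, a paralog, are named besides, and 8 further genes (HKDC1, RACK1, HMOX1, PDK3, DLAT, PGLS, TALDO1 and RPIA) were chosen after their values were seen. The members and lists were chosen with earlier results of these data known.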

Additional observations from a re-analysis of the deposited data

How the results depend on the processing

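The count of members called lower, 12 as reported, was 2 against a null of a change over 1.5-fold and 6 with Wald scores scaled by their central spread (1.75), and that of members called higher, 1 as reported, was 0 under both and 0 relative to neighbouring genes. In the further lists, 17 lower and 4 higher became 3 and 0 against the 1.5-fold null, and 1 was higher with scaled scores. Called glycolytic enzymes, 2 as reported, were 4 at an adjusted p under 0.1, after centring and at a base mean of at least 100, 0 against the 1.5-fold null and 1 with scaled scores. Called non-glycolytic targets, 10 as reported, were 2 and 4 under those last 2 settings, and differing pairs went from 4 to 1 with scaled SEs. SLC2A3 reversed to -0.27 relative to neighbouring genes. The cause of these changes was not tested. The median log2 fold change kept its sign in every setting run, from -0.31 to -0.10 for the enzymes and from -0.53 to -0.39 for the non-glycolytic targets. No paired analysis was possible because the deposited table holds no value per library; leaving out each replicate was not run for the same reason. Few reads limit members with several accessions, whose intervals span 0 in most cases.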

Other observations

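Of 13 genes for the entry of pyruvate into mitochondria 4 were tested in the authors' deposited table, 2 lower and 1 higher, beside 12.7% lower and 12.4% higher of all tested genes; so few tested genes allow no statement on the list. PDK4, a kinase that inactivates pyruvate dehydrogenase, fell by 1.44 (SE 0.38, adjusted p = 0.000943) in log2 units, per the authors' deposited table, at a base mean of 17.8. PDK3, of the same family, fell by 0.58 (SE 0.12) and DLAT, a subunit of pyruvate dehydrogenase, was higher by 0.45 (SE 0.10), per the authors' deposited table. Of 8 pentose phosphate genes 4 were tested, 2 lower and 1 higher, beside those same shares, and again so few allow no statement on the list. PGLS, the lactonase, fell by 0.57 (SE 0.11), TALDO1, transaldolase, fell by 0.43 (SE 0.07) and RPIA, ribose phosphate isomerase, was higher by 0.59 (SE 0.13), per the authors' deposited table. The neighbours of TALDO1 had a median of -0.33, on the same side as its fall, those of PGLS 0.13 and those of RPIA 0.01. PDK3, DLAT, PGLS, TALDO1 and RPIA were singled out after their values were seen, as were RACK1 and HMOX1. RACK1, a ribosomal scaffold that also promotes oxygen-independent turnover of HIF-1 alpha, was higher by 0.49 (SE 0.07) and HMOX1, haem oxygenase, by 0.42 (SE 0.13) per the authors' deposited table.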
